A study of Rattus norvegicus with 8 samples.

Results

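The cytosolic ribosomal protein genes described here are the genes whose symbols begin with Rpl or Rps and a number, or with Rplp and a number, leaving out the S6 kinases and the Rps19 binding protein. The choice by symbol found 42 of the 4351 genes in either deposited table: 40 of the 4136 genes listed for imiquimod against untreated ganglia and 2 of the 775 listed for lidocaine against imiquimod, with none in both. RNA came from dorsal root ganglia of Sprague Dawley rats of 250 g, labelled as follows. The lidocaine group (n = 2) had 6 days of imiquimod (IMQ) on the back skin and, for 4 of those days beginning with day 3, epidural lidocaine at 1%; the IMQ group (n = 3) had the same imiquimod alone; the WT group (n = 3) was left untreated. Imiquimod, an agonist of Toll-like receptor 7, induces a psoriasis-like skin disease, and lidocaine blocks sodium channels. Ganglia of all groups were collected on day 7. Age, sex, spinal level, a vehicle for imiquimod and a vehicle for the epidural injection are not given in the labels, and the labels do not say whether each library came from a separate animal, so the p-values measure the spread between these libraries.

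A ribosome is built from a large and a small subunit, each a scaffold of ribosomal RNA with one copy of most of its proteins, and the small subunit reads the message while the large one joins amino acids and lets the chain out through a tunnel. Most mammalian ribosomal protein genes are active in every cell and their messages are made in step. Their transcripts start at a C followed by a run of pyrimidines, the terminal oligopyrimidine tract, through which the kinase mTORC1 controls their translation. Sensory neurons need many ribosomes in the cell body and carry some of them into the axon. The rat genome also holds many processed copies of these genes.

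The promoter table of RefSeq (GRCr8, 250 bases before to 50 bases after each annotated start) held 32 promoters of 31 members. A run of at least 8 C or T on the gene strand, overlapping the 10 bases on either side of the start, was present in 23 of the 32 promoters (71.9%), against 13.2% of all 33469 promoters of the table. The median longest run was 10 bases in members and 4 bases in all promoters. The next lines give the 40 bases before and the 20 bases from the start of 6 members, 5′ to 3′ on the gene strand, with the longest such run in capitals. They are the members with the largest differences of each subunit that have a standard symbol, the paralog pair Rpl22 and Rpl22l1, the most uneven gene Rpl38, and Rps10, which has the smallest difference of the small subunit.
Rpl37: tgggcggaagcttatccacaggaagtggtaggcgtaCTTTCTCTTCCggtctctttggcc
Rpl22: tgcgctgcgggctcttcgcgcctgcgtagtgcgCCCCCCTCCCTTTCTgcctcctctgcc
Rpl22l1: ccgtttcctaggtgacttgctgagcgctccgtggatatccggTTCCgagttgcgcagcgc
Rpl38: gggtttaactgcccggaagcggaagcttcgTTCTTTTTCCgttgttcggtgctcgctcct
Rps21: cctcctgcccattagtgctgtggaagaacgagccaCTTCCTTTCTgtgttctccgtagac
Rps10: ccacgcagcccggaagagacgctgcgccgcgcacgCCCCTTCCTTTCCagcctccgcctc
Rpl37 lies on the plus strand at chr2:55942905-55942964, Rpl22 on the plus strand at chr5:168117921-168117980 and Rpl22l1 on the plus strand at chr2:113683156-113683215. Rpl38 lies on the plus strand at chr10:100200395-100200454, Rps21 on the plus strand at chr3:187723998-187724057 and Rps10 on the minus strand at chr20:5700725-5700784. The run spans 15 bases in Rpl22 and 4 bases in its paralog Rpl22l1. Searched on both strands of the 300 bases, CTTTCC was found in 62.5% of the members' promoters and 26.4% of all, and CCGGAAG, a core bound by ETS factors, in 31.2% and 8.75%. AAGATGGCG was found in 3.12% and 1.73%, and the TATA sequence TATAAA in 9.38% and 14.2%. CTTTCC overlapped the run at the start in 8 members, and 6 members held both CTTTCC and CCGGAAG. These matches describe the letters of the windows and no binding.

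All 40 ribosomal protein genes of the table for IMQ against WT were lower in IMQ ganglia. They comprise 24 large subunit genes, of which 19 have standard symbols and 5 are copies or paralogs, and 16 small subunit genes, of which 12 have standard symbols and 4 are copies. On the log2(normalized count + 1) scale the median difference, IMQ minus WT, was -1.24 for the large subunit and -1.30 for the small subunit, and single genes lay between -2.32 and -1.01. The authors listed no gene with a difference under 1.00, so each listed member had to differ by that much. By limma, with Benjamini-Hochberg adjustment over all listed genes and a threshold of 0.05, 39 of the 40 passed as lower. Of all listed genes 37.0% passed as lower and 58.9% as higher. Of the 1608 listed genes that were lower, 1530 passed. The number of members called was 20, 14 and 8 without IMQ library 1, 2 or 3, and 40, 12 and 26 without WT library 1, 2 or 3. Among all listed genes the median difference was 1.25, and among those that were lower it was -1.37, a larger drop than the members' median of -1.27. In bulk ganglia, fewer cells of a type and less of a message per cell cannot be told apart.

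Each IMQ library was below every WT library in 36 of the 40 members, 21 of the large and 15 of the small subunit. The same held for 35.8% of all listed genes, and for 1482 of the 1608 listed genes that were lower in IMQ. Every IMQ library was above every WT library in 57.0% of all listed genes. The 4 members with overlapping groups were Rpl38, Rpl3l, Rpl13 and Rps28. Reads of the 40 members made up, among the genes the authors listed, 2.73%, 2.497% and 2.30% of reads in IMQ libraries 1 to 3, against 3.83%, 5.28% and 6.40% in WT libraries 1 to 3. This share was below every WT value in every IMQ library, and it spread wider in WT. Over both subunits the median SD of a member was 0.16 among IMQ libraries and 0.79 among WT libraries, and the WT SD was the larger one in 40 of 40 members, as in 3240 of all 4136 listed genes.

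**Figure D1:**
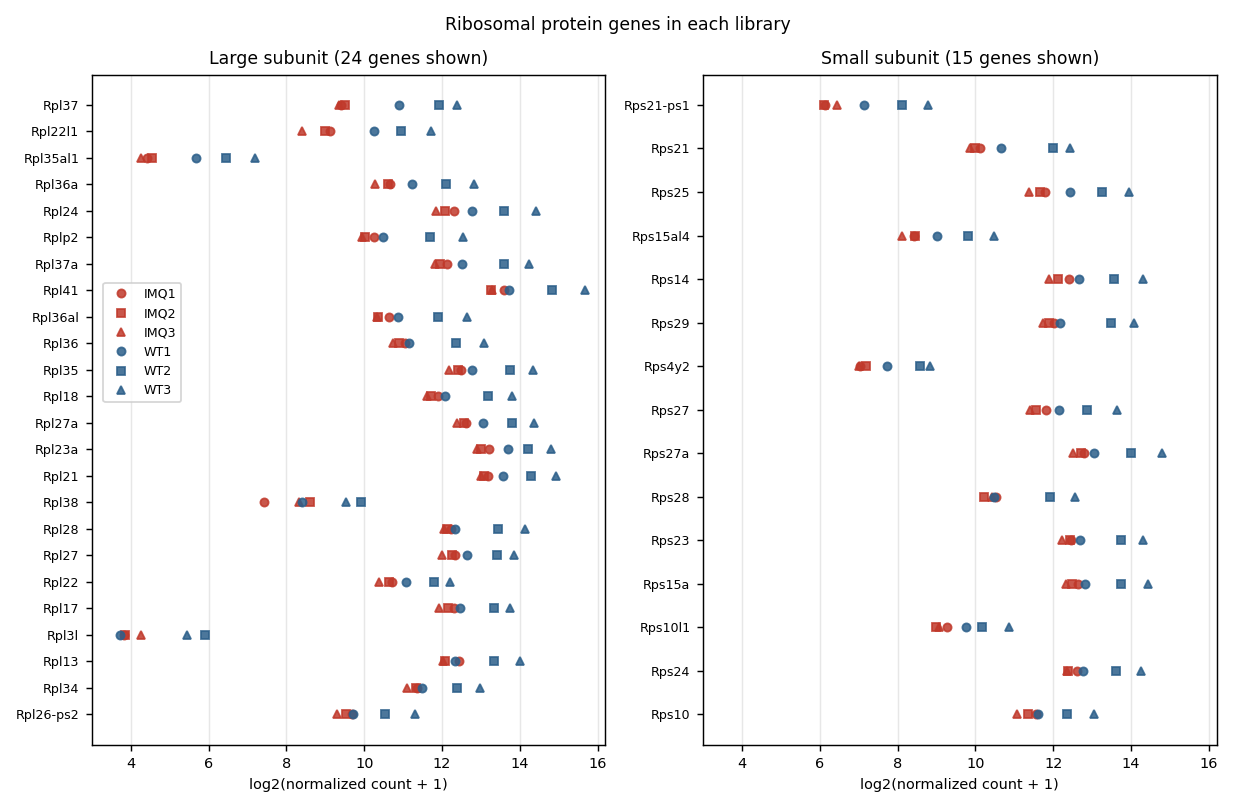
Levels of 39 of the 40 listed members, log2(normalized count + 1), in each IMQ library (n = 3) and each WT library (n = 3), with large subunit genes in one panel and small subunit genes in the other, ordered by difference. IMQ points lie close together for most genes, while WT library 1 sits near them and WT library 3 lies farthest to the right for all genes shown but Rpl38 and Rpl3l.

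Among the large subunit genes Rpl37 (ENSRNOG00000034180), a zinc-binding protein of the subunit, differed most. Its level was 9.40, 9.51 and 9.34 in IMQ libraries 1 to 3, against 10.89, 11.93 and 12.39 in WT libraries 1 to 3. It fell by 2.32 (SE 0.39, limma adjusted p = 0.00251), which is 4.99-fold lower in IMQ. The groups stood well apart, and the lowest WT library still exceeded the highest IMQ library.

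Rpl22l1 (ENSRNOG00000011817) encodes a paralog that can take the place of Rpl22 in the large subunit, and in mice its level rises when Rpl22 is lost. It stood at 9.12, 8.99 and 8.41 in IMQ libraries, against 10.26, 10.94 and 11.73 in WT libraries, and fell by 2.13 (SE 0.41, limma adjusted p = 0.00426). Rpl22 (ENSRNOG00000011104) itself, whose protein binds RNA at the surface of the large subunit, was at 10.71, 10.65 and 10.39 in IMQ libraries and 11.08, 11.80 and 12.19 in WT libraries. It fell by 1.11 (SE 0.32, limma adjusted p = 0.0163). Both genes were separated between the groups.

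Rpl35al1 (ENSRNOG00000032348), a copy related to Rpl35a, was sparsely counted, with no fewer than 17 reads in a library. Its level was 4.42, 4.55 and 4.26 in IMQ libraries, against 5.69, 6.45 and 7.19 in WT libraries. The difference was -2.04 (SE 0.45, limma adjusted p = 0.00674), with no overlap. Rpl36a (ENSRNOG00000011494), whose protein lies near the exit site for transfer RNA, had 10.66, 10.62 and 10.29 in IMQ libraries and 11.23, 12.10 and 12.82 in WT libraries. Its drop of -1.53 (SE 0.40, limma adjusted p = 0.0122) was smaller than that of Rpl35al1 and again left the groups apart, although WT library 1 came close to the IMQ libraries.

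The smallest differences of the large subunit were those of Rpl26-ps2 and Rpl34. Rpl26-ps2 (ENSRNOG00000039783), annotated in RefSeq as a pseudogene of the tunnel-exit protein gene Rpl26, was at 9.68, 9.53 and 9.31 in IMQ libraries and 9.72, 10.53 and 11.30 in WT libraries (difference -1.01, SE 0.41, limma adjusted p = 0.0428). Rpl34 (ENSRNOG00000016387), another gene of the subunit's proteins, was at 11.36, 11.34 and 11.11 in IMQ libraries and 11.49, 12.39 and 12.99 in WT libraries (difference -1.02, SE 0.38, limma adjusted p = 0.0347). In both genes WT library 1 lay just above the highest IMQ library and the other WT libraries far above it. The call of Rpl26-ps2 was lost in 8 of 16 alternatives and that of Rpl34 in 6.

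Rpl3l (ENSRNOG00000014641) was the member that missed the threshold. It is the paralog of Rpl3 used in heart and skeletal muscle, and its reads were few, with 11 in the lowest library. The level was 3.83, 3.85 and 4.26 in IMQ libraries and 3.73, 5.91 and 5.45 in WT libraries, a difference of -1.05 (SE 0.60, limma adjusted p = 0.12). WT library 1 was below all IMQ libraries, so the groups overlapped. Skeletal muscle markers moved with it: 17 of 24 were listed, all 17 lower in IMQ. Past the threshold were 15, where 37.0% of all listed genes passed as lower. The log2 of the markers' summed normalized counts ranged from 11.59 to 11.86 in IMQ libraries and from 12.61 to 14.02 in WT libraries. Most of this sum is Pvalb, which proprioceptive neurons also express. Without Pvalb, a choice made after seeing the data, the log2 of the sum was 10.13, 9.85 and 9.85 in IMQ libraries, against 10.66, 12.84 and 12.14 in WT libraries. Of the 16 other markers, 14 were highest in WT library 2, as was Rpl3l. The part of muscle in the values of Rpl3l was not tested.

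The remaining large subunit genes all passed. Near the mouth of the exit tunnel, where nascent chains meet their helpers, Rpl35 differed by -1.27, Rpl23a by -1.19 and Rpl17 by -1.05. Rpl24 and Rpl41, whose proteins reach across to the small subunit, differed by -1.51 and -1.36. Rplp2, an acidic protein of the stalk that calls in elongation factors, differed by -1.48 (SE 0.49, limma adjusted p = 0.0239). The reads of Rplp2 were the same, to the read, as those of the P2-like gene LOC100911575 in all 6 libraries, so its reads and those of that copy cannot be told apart. Rpl37a differed by -1.48, Rpl36al, the paralog of Rpl36a, by -1.36 and Rpl36 by -1.30. Rpl18, Rpl27a, Rpl21, Rpl28 and Rpl27 lay between -1.27 and -1.11.

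Rpl38 and Rpl13 passed although their groups overlapped. Rpl38 (ENSRNOG00000030747), needed in mice for the translation of a set of Hox messages, was at 7.42, 8.60 and 8.33 in IMQ libraries and 8.41, 9.91 and 9.53 in WT libraries, a difference of -1.17 (SE 0.48, limma adjusted p = 0.0463). Its lowest IMQ library was the first, and its highest WT library was the second, unlike most members. An L38-like copy, LOC690468 (ENSRNOG00000048701), showed the same order, at 7.21, 8.33 and 8.08 in IMQ libraries and 8.18, 9.69 and 9.37 in WT libraries. Other L38 copies differed by -2.44, -2.38, -2.14 and -1.28. How reads were divided between Rpl38 and these copies is not given, so the profile cannot be assigned to Rpl38 alone. The call of Rpl38 was lost in 10 of 16 alternatives, among them pseudocount 0.1 (limma adjusted p = 0.0529), no trend (0.0544), library weights (0.119) and equal sums (0.079). Rpl13 (ENSRNOG00000015335), another large subunit gene, had 12.42, 12.08 and 12.03 in IMQ libraries and 12.33, 13.34 and 13.99 in WT libraries (difference -1.04, SE 0.42, limma adjusted p = 0.0425). In Rpl13 the overlap came from IMQ library 1 standing above WT library 1, and its call was lost in 7 of 16 alternatives.

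In the small subunit Rps21-ps1 and Rps21 differed most. Rps21 (ENSRNOG00000060449), a gene of the small subunit, was at 10.11, 9.99 and 9.85 in IMQ libraries, against 10.66, 11.99 and 12.44 in WT libraries. It fell by 1.71 (SE 0.45, limma adjusted p = 0.0117), or 3.27-fold. Rps21-ps1 (ENSRNOG00000033916), annotated as a pseudogene, was at 6.12, 6.12 and 6.45 in IMQ libraries and 7.13, 8.10 and 8.79 in WT libraries, a difference of -1.78 (SE 0.45, limma adjusted p = 0.0108). Every IMQ library was below every WT library in both.

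Rps25 (ENSRNOG00000027503) encodes a protein of the subunit's head that several viral messages need in order to start translation. Its level was 11.79, 11.67 and 11.37 in IMQ libraries and 12.42, 13.26 and 13.93 in WT libraries, and it fell by 1.595 (SE 0.39, limma adjusted p = 0.00941). Rps15al4 (ENSRNOG00000053756), a copy of Rps15a, was at 8.42, 8.46 and 8.11 in IMQ libraries and 9.02, 9.80 and 10.48 in WT libraries (difference -1.44, SE 0.39, limma adjusted p = 0.0132). Both were separated between the groups. The reads of Rps15al4 differed by 2 to 12 a library from those of the S15a-like gene LOC100909878, so these copies cannot be told apart either.

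The smallest differences of the small subunit belonged to Rps10 and Rps24, whose human counterparts are mutated in some families with Diamond-Blackfan anaemia. Rps10 (ENSRNOG00000000490), at the entry of the message channel, had 11.55, 11.35 and 11.07 in IMQ libraries and 11.61, 12.36 and 13.06 in WT libraries, a difference of -1.02 (SE 0.38, limma adjusted p = 0.0339). Rps24 (ENSRNOG00000010189) was at 12.61, 12.37 and 12.34 in IMQ libraries and 12.76, 13.61 and 14.26 in WT libraries (difference -1.10, SE 0.38, limma adjusted p = 0.0277). WT library 1 was the nearest to the IMQ libraries in both, and still above them.

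Of the other small subunit genes, Rps23, which lines the decoding centre, differed by -1.21 and Rps14, a protein of the platform, by -1.37. The zinc-binding proteins' genes Rps29, Rps27 and Rps27a differed by -1.37, -1.29 and -1.28, the last of which is made as a fusion with ubiquitin. Rps4y2, Rps15a and Rps10l1, the last annotated as a pseudogene, differed by -1.30, -1.17 and -1.15. Rps28 (ENSRNOG00000042886), near the exit of the message channel, had 10.54, 10.23 and 10.42 in IMQ libraries and 10.48, 11.93 and 12.55 in WT libraries (difference -1.26, SE 0.50, limma adjusted p = 0.0418). It overlapped between the groups because IMQ library 1 was above WT library 1, and its call was lost in 7 of 16 alternatives.

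The differences depended on which WT library the IMQ mean was set against. Against WT library 1 the IMQ mean was lower in 39 of 40 members (38.3% of all listed genes), with medians of -0.43 for the large and -0.55 for the small subunit. Against WT library 2 it was lower in 40 of 40 (38.8% of all listed genes), with medians of -1.43 and -1.44. Against WT library 3 it was lower in 40 of 40 (38.7% of all listed genes), with medians of -1.998 and -2.12. Among the 1608 lower listed genes the IMQ mean was below WT libraries 1, 2 and 3 in 1585, 1606 and 1602. The range over single members was -1.47 to 0.25 against WT library 1 and -2.98 to -1.42 against WT library 3. Rpl37, Rpl22l1 and Rpl35al1 had the largest drops against WT library 1, at -1.47, -1.42 and -1.28, and Rpl3l alone was higher in IMQ there, by 0.25.

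**Figure D2:**
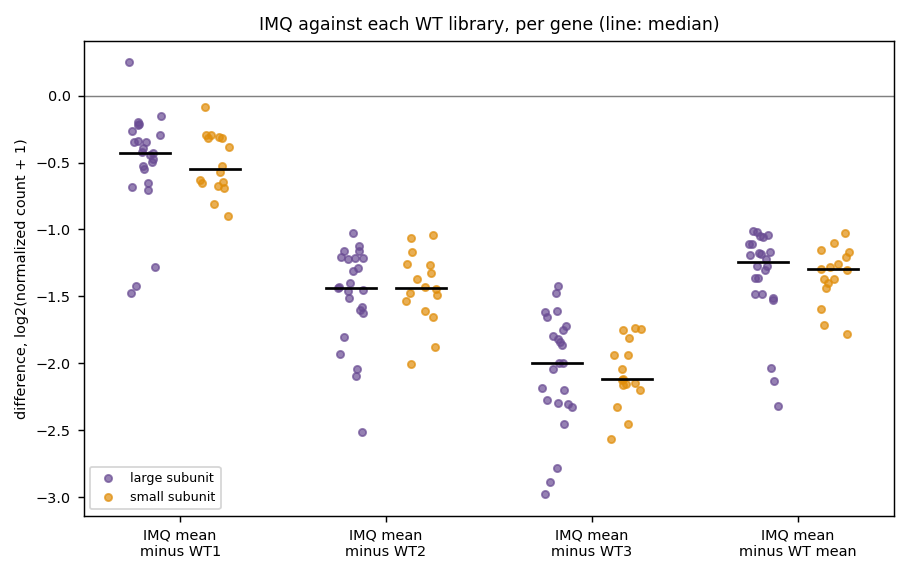
Mean of the 3 IMQ libraries minus each WT library, on the log2(normalized count + 1) scale, for each large and small subunit gene, with a column for the mean of all WT libraries at the right and lines at the medians. The medians move from -0.43 and -0.55 against WT library 1 to -1.998 and -2.12 against WT library 3.

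WT library 1 was the lowest WT library in 40 of 40 members and WT library 3 the highest in 38, all but Rpl38 and Rpl3l. Both held together in 95.0% of members, in 71.7% of the listed genes that were lower in IMQ and in 41.4% of all listed genes. WT library 3 exceeded WT library 1 by a median of 1.58 in the members, by 1.06 in the lower listed genes and by 0.12 in all listed genes. In the members this gap inside the WT group was larger than the median difference between the groups, -1.27. Against WT libraries 1, 2 and 3 the lower listed genes as a whole had medians of -0.86, -1.45 and -1.90, while the members had -0.44, -1.43 and -2.04.

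Other genes that differ inside the WT group are given beside this. WT library 3 exceeded WT library 1 by a median of 1.31 over 3 listed of 18 neuron markers (Sncg, Nefm and Prph). It did so by 1.48 over 17 of 24 skeletal muscle markers and by 1.12 over 8 genes listed for the 18 erythroid markers. Among these 8, Hba-a2 was counted under each of its gene identifiers. The medians were 0.16 over 3 of 16 satellite glia and Schwann cell markers, 0.21 over 18 of 20 macrophage markers and 0.86 over 15 of 20 lymphocyte markers. Each range below is of the log2 of a list's summed normalized counts, in which the most abundant genes weigh most, such as Nefm and Lyz2. The neuron markers ranged from 18.33 to 18.38 in IMQ libraries and from 19.01 to 19.97 in WT libraries, with all 3 lower and past the threshold. The erythroid markers ranged from 14.26 to 16.27 in IMQ libraries and from 17.11 to 18.63 in WT libraries, with all 8 lower and past it, and Tspo2 at 0 in a library. Macrophage markers ranged from 17.01 to 17.31 in IMQ libraries and from 13.78 to 14.04 in WT libraries, all 18 higher, and lymphocyte markers from 13.17 to 13.58 in IMQ libraries and from 9.46 to 9.72 in WT libraries, with 14 higher, 1 lower and Gzmb and Cd8b at 0 in a library. The glial markers ranged from 15.25 to 16.00 in IMQ libraries and from 14.01 to 14.13 in WT libraries, all 3 higher. Beside these counts, 37.0% of all listed genes passed as lower and 58.9% as higher, so most listed genes passed. The part of cell makeup in the members' values was not tested.

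The large and small subunits had nearly equal mean differences. Over genes with standard symbols the mean difference was -1.30 for the large subunit (SD 0.29 over 19 genes) and -1.31 for the small subunit (SD 0.19 over 12 genes). Within a library, the mean level of the large subunit genes minus that of the small subunit genes was -0.18, -0.08 and -0.09 in IMQ libraries, against -0.08, -0.11 and -0.19 in WT libraries. These values overlapped. With medians in place of means the gap was 0.32, 0.30 and 0.29 in IMQ libraries, against 0.04, -0.04 and -0.15 in WT libraries, which did not overlap. With the copies and paralogs included, the gap of medians was -0.03, 0.08 and 0.10 in IMQ libraries, against -0.24, -0.005 and -0.10 in WT libraries, which overlapped. No test was made of any of these gaps.

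Levels were also set against the median of the 40 members in the same library. This median was 11.67, 11.45 and 11.25 in IMQ libraries and 11.995, 12.78 and 13.51 in WT libraries. Its group means differed by -1.31, which is taken from every member's difference alike. The order of the members is therefore the one already given, with Rpl37 and Rpl22l1 first, and is no further result. Rpl37 stood below it by -2.26, -1.94 and -1.91 in IMQ libraries, against -1.11, -0.85 and -1.12 in WT libraries. Rpl22l1 stood at -2.55, -2.45 and -2.84 in IMQ libraries, against -1.73, -1.85 and -1.78 in WT libraries. Both were further under the median in every IMQ library than in any WT library, and the group means of this value differed by -1.01 and -0.83. Rpl35al1 differed by -0.73 on this scale, Rps21-ps1 by -0.47 and Rps21 by -0.40, and the other 35 members by -0.29 to 0.30. Among those with a positive difference on this scale, Rps10 stood at -0.12, -0.10 and -0.19 in IMQ libraries, against -0.38, -0.42 and -0.45 in WT libraries, a relative difference of 0.28. Rpl38 was uneven in both groups, with -4.25, -2.85 and -2.93 in IMQ libraries and -3.59, -2.87 and -3.97 in WT libraries.

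**Figure D3:**
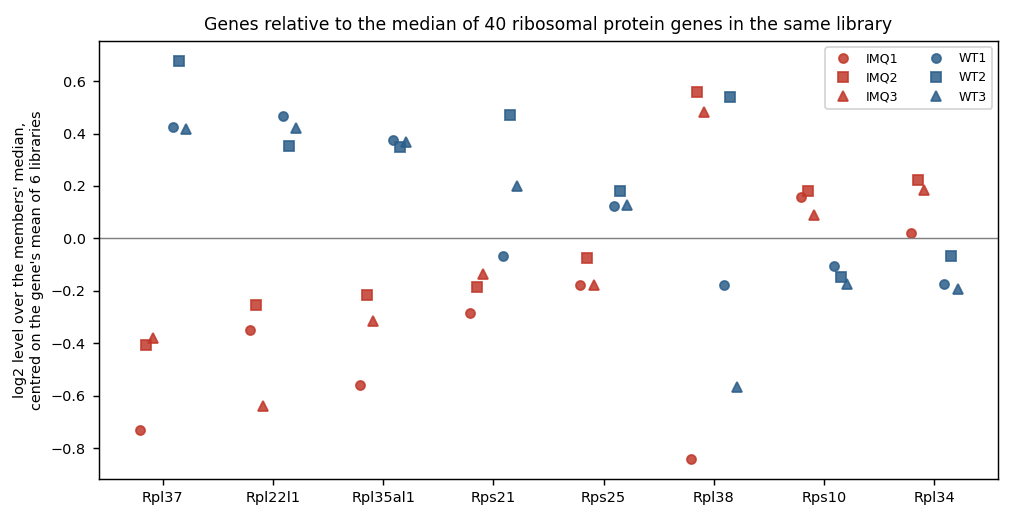
Level of 8 members minus the median of the 40 members in the same library, on the log2 scale, centred on each gene's own mean over the 6 libraries, with IMQ libraries (n = 3) to the left of WT libraries (n = 3). Every IMQ library lies below every WT library for Rpl37, Rpl22l1, Rpl35al1, Rps21 and Rps25. It lies above every WT library for Rps10 and Rpl34, while Rpl38 is scattered in both groups.

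Copies and paralogs could be compared with their parent genes inside each library. With 5 pairs listed, p-values had Benjamini-Hochberg adjustment over them; with 3 libraries against 3, a two-sided exact permutation test cannot go below p = 0.1. Rpl22l1 minus Rpl22 was -1.59, -1.65 and -1.98 in IMQ libraries, against -0.82, -0.86 and -0.47 in WT libraries. The means were -1.74 ± 0.21 in IMQ and -0.71 ± 0.22 in WT (SD, n = 3 each), a difference of -1.03 with no overlap (exact permutation p = 0.1, adjusted p = 0.25). Rps15al4 minus Rps15a averaged -4.16 ± 0.11 in IMQ and -3.89 ± 0.10 in WT, also without overlap (difference -0.27, exact permutation p = 0.1, adjusted p = 0.25). For Rpl36al against Rpl36a the difference between groups was 0.17 (exact permutation p = 0.3), for Rps10l1 against Rps10 -0.13 (exact permutation p = 0.5) and for Rps21-ps1 against Rps21 -0.07 (exact permutation p = 0.9), and their groups overlapped. Reads can be shared between a copy and its parent, and how the authors' counting treated such reads is not given in the sources used here.

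**Figure D4:**
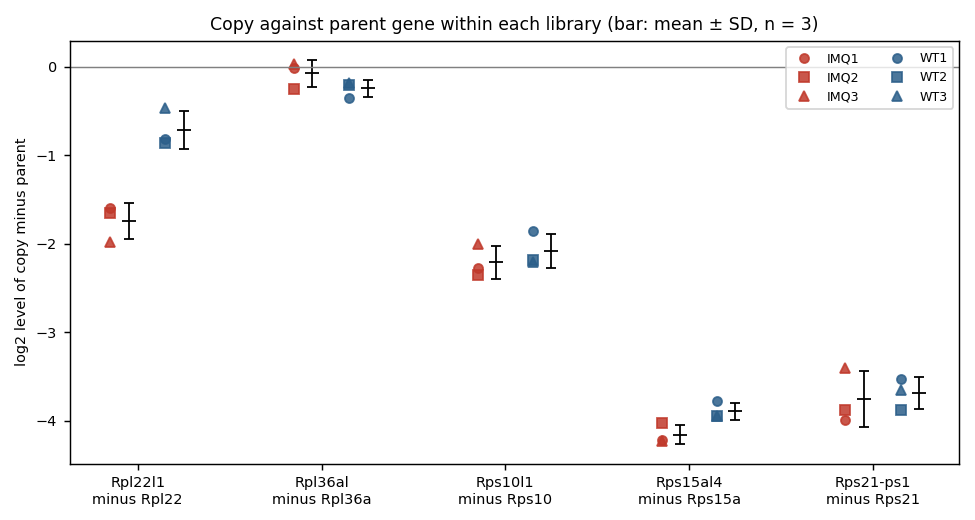
Copy or paralog minus parent gene within each library, on the log2 scale, for the 5 listed pairs, with IMQ libraries to the left of WT libraries (n = 3 each) and bars at the mean ± SD. For Rpl22l1 against Rpl22 the IMQ libraries lie between -1.98 and -1.59, below all WT libraries.

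The lidocaine table held Rpl30 and Rpl39l, both higher in the lidocaine group, and 1 of these 2 passed the threshold, where 7.48% of all genes of that table passed as higher and 87.1% as lower. Rpl30 (ENSRNOG00000032825), a protein of the large subunit that in yeast binds its own transcript, was at 10.56 and 10.59 in lidocaine libraries 1 and 2, against 9.98, 8.19 and 8.63 in IMQ libraries 1 to 3. These levels rest on 1223 and 1386 reads in lidocaine libraries and 836, 259 and 372 reads in IMQ libraries. The means were 10.58 ± 0.03 in lidocaine (SD, n = 2) and 8.93 ± 0.93 in IMQ (SD, n = 3). Rpl30 rose by 1.64 (SE 0.51, limma adjusted p = 0.0216), or 3.12-fold, and every lidocaine library was above every IMQ library, as in 8.90% of the table's genes, with 89.2% in the opposite order. The call was lost without lidocaine library 1 (limma adjusted p = 0.148), without lidocaine library 2 (0.146) and without IMQ library 3 (0.0542). With libraries scaled to equal sums over the listed genes, the difference of Rpl30 was 2.87 and that of Rpl39l 2.48, where the median of all genes of the table was -0.24, against -1.44 with the authors' scaling.

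An L30-like copy, LOC100362027, was listed for IMQ against WT and had 11.13, 11.40 and 10.89 in IMQ libraries, against 11.85, 12.40 and 12.81 in WT libraries. IMQ library 2 was thus lowest for Rpl30 and highest for the copy. Rpl39l (ENSRNOG00000032300), the paralog of the tunnel protein gene Rpl39 that is used in male germ cells of mice, had 3.98 and 5.44 in lidocaine libraries and 3.24, 3.85 and 3.08 in IMQ libraries. It rests on 12 and 38 reads in lidocaine libraries and 7, 12 and 7 reads in IMQ libraries. The difference of 1.32 (SE 0.56, limma adjusted p = 0.0544) missed the threshold, although the groups did not overlap. Levels of the other 40 members in lidocaine libraries were not analysed here. Beside these values, 11 genes of the 18 erythroid markers, 12 of 20 macrophage markers and 16 of 20 lymphocyte markers were listed there. Among the erythroid genes, Hba-a2 was counted under each of its gene identifiers. All of these genes were lower in the lidocaine group and past the threshold, as were 87.1% of all genes listed for lidocaine against IMQ. The part of these markers in the result was not tested.

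**Figure D5:**
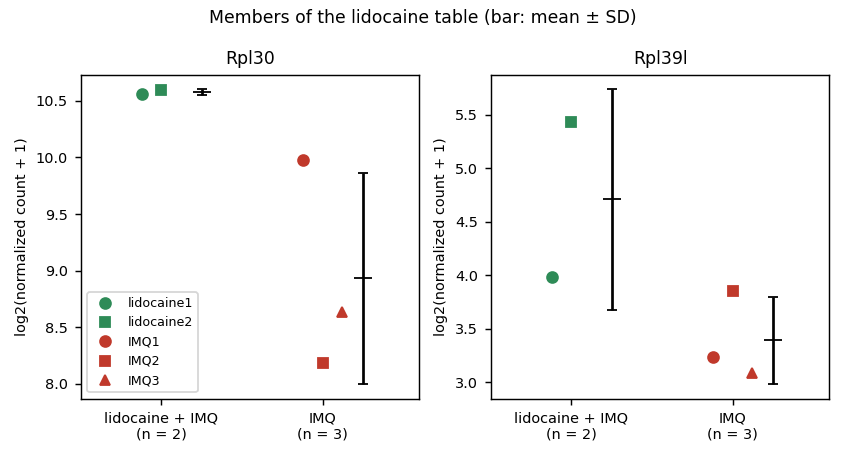
Levels of Rpl30 and Rpl39l, log2(normalized count + 1), in each lidocaine library (n = 2), to the left, and each IMQ library (n = 3), with bars at the mean ± SD. Rpl30 is at 10.56 and 10.59 in the lidocaine libraries and spreads from 8.19 to 9.98 in IMQ libraries, while Rpl39l is low in all 5.

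Few of the genes that build, feed and control the ribosome were listed. Of all genes listed for IMQ against WT, 37.0% passed as lower and 58.9% as higher, so most listed genes passed. Of 11 ribosomal proteins and partners with other symbols, 3 were listed and lower in IMQ, and 2 passed, among them Naca, which binds nascent chains (-1.003, SE 0.35, limma adjusted p = 0.0276). Fau, fused to a small subunit protein, differed by -1.25 (SE 0.58, limma adjusted p = 0.0667) and was at 8.38, 8.16 and 7.95 in IMQ libraries and 8.06, 9.72 and 10.45 in WT libraries. The listed values of Fau are the same in all 6 libraries as those of the copy LOC100360647, so their reads cannot be told apart. Of 16 elongation and termination factors only Eef1b2, the exchange factor of the elongation factor that delivers transfer RNA, was listed, and it fell by 1.01 (SE 0.36, limma adjusted p = 0.0304). Of 49 initiation factors 6 were listed and passed. The partners Mcts1 (-1.39) and Denr (-1.28), which recycle the small subunit, fell with Eif1b (-1.01) and Eif3f (-1.11), and the poly(A)-binding protein Pabpc1 (1.04) and the translation inhibitor Eif4ebp2 (1.97) rose.

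Of 99 ribosome assembly factors 6 were listed and passed. Nsa2 (-1.05), which matures the large subunit, Gar1 (-1.09) and Nop10 (-1.14), which belong to the complexes that make pseudouridine, and Imp3 (-1.25), which acts on the small subunit, were lower, while Heatr1 (7.93) and the ATPase Mdn1 (1.09) were higher. Heatr1, a factor of small subunit processing, was at 9.64, 9.67 and 9.66 in IMQ libraries and listed at 0, 3.30 and 1.88 in WT libraries. Of 21 genes of mTORC1 and the S6 kinases only its brake Tsc1 was listed, at 9.64, 10.15 and 10.12 in IMQ libraries and 9.83, 8.39 and 7.00 in WT libraries (difference 1.56, SE 0.65, limma adjusted p = 0.0484). WT library 1 lay among the IMQ libraries for Tsc1, and WT library 3 farthest from them. No gene of the 18 of RNA polymerase I was listed, and none of these lists had a gene in the lidocaine table.

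Genes of the mitochondrial ribosome were lower too. All 37 listed were lower in IMQ, with a median of -1.21, and 36 passed. Of the 1608 listed genes that were lower in IMQ, 1530 passed, with a median of -1.37. Against WT libraries 1, 2 and 3 the mitochondrial genes had medians of -0.54, -1.26 and -1.77. In the mitochondrial genes WT library 3 exceeded WT library 1 by a median of 1.24. No test of a difference between the cytosolic and the mitochondrial genes was made.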

How the data were processed

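The authors deposited log2 values per library, as log2(normalized count + 1), in a table for IMQ against WT and one for lidocaine against IMQ. Raised back, each library showed 1 smallest step, and 100% of values checked up to 2000 reads were whole in it (tolerance 0.02 reads), which gave the reads quoted. Per the submitters' processing notes, the tools included STAR 2.5.3a, bcl2fastq and DESeq2, in roles not stated; the build, annotation, counter and strandedness are not given in the sources at hand. Both tables are selections of genes with differences of at least 1.00, so the p-values do not show how much of the transcriptome changed.

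Members were matched by symbol. Members and lists were chosen with earlier results of these data known. Each table was fitted by limma 3.58.1 (R 4.3.3) on its own libraries, using a mean-variance trend,, adjusted over all listed genes, after requiring a mean normalized count of at least 1, which removed none. Values per library are given for the 4 largest and 2 smallest differences of each subunit. They are also given for members missing the threshold and members of the lidocaine table. In other lists the genes with the 3 smallest adjusted p of each direction are named. Eif3f, Nop10, Rpl22, Rpl38, Rpl13, Rps28, LOC100362027 and the L38-like, L9-like and S8 copies were chosen after their values were seen. Permutation tests used scipy 1.17.1. RefSeq symbols matched 40 of 42 members, 3 of them pseudogenes. Relative depth, the inverse of the step over its mean, was 0.789 to 0.873 in lidocaine, 0.808 to 0.912 in IMQ and 1.09 to 1.34 in WT libraries. No library repeated another. Some genes are counted but not reported by name here. Protein comparisons that had been planned were left out because no protein table was used here. Alternatives were other pseudocounts, filters, scalings and models, a replicate block and each library left out.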

Additional observations from a re-analysis of the deposited data

How the results depend on the processing

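No member's difference and no subunit median changed direction under the alternatives run; the other gene lists and the pairs of copies and parents were not recomputed, apart from the muscle markers without Pvalb. For IMQ against WT, limma called 2435 listed genes higher and 1530 lower, with 39 members among the lower. At an adjusted p under 0.01 these became 1276, 619 and 4. Leaving out each library in turn gave 1563 to 2397 higher, 869 to 1552 lower and 8 to 40 members (20 without IMQ library 1, 14 without IMQ library 2, 8 without IMQ library 3, 12 without WT library 2, 26 without WT library 3), with subunit medians between -1.70 and -0.90 (large) and -1.75 and -0.94 (small). Scaling libraries to equal sums over listed genes moved the median of all listed genes to 1.51, against 1.25, and the subunit medians to -0.99 and -1.04, with 38 members called. Rpl37, Rpl22l1, Rpl35al1 and Rps25 passed under every alternative; Rpl38 lost its call in 10, Rpl26-ps2 in 8, Rpl13 and Rps28 in 7 each.

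For lidocaine against IMQ, limma called 58 higher, 675 lower and 1 of the 2 members. A mean of at least 50 gave 12 and 441, an adjusted p under 0.01 gave 18, 336 and 0 members (1 had an unadjusted p under 0.05), and equal sums gave 69 lower and 2 members, with a median of all listed genes of -0.24, against -1.44. Pseudocount 10 and the fit without a trend each gave 2 members. Leaving out a library gave 23 to 50 higher, 364 to 644 lower and 0 to 2 members; where 1 lidocaine library was left, it was assumed to vary like the others. Causes were not tested.

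With the replicate number as a block, 2380 were higher, 1438 lower and 38 members lower for IMQ against WT, and 37 higher for lidocaine against IMQ. The deviations of same-numbered libraries correlated by -0.16, -0.06 and -0.12 for IMQ against WT. For lidocaine against IMQ they correlated by 0.016 and 0.044. Deviations from a mean of so few libraries depend on each other. The correlations therefore cannot show whether same-numbered libraries share a batch, a day or an animal, and the labels do not say. Low read counts limit Rpl3l, Rpl35al1 and Rpl39l.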

Other observations

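Besides the members, 34 listed genes under provisional symbols are described as cytosolic ribosomal proteins or copies of them. In IMQ ganglia 30 of them were lower, 26 past limma's threshold, where 37.0% of all listed genes passed as lower. The other 4 were higher, 3 past the threshold, where 58.9% of all listed genes passed as higher. The median difference of the 34 was -1.26. The 34 include LOC100911575, LOC100909878 and LOC100360647, whose reads are the same or nearly the same as those of Rplp2, Rps15al4 and Fau. Part of the count therefore repeats values given above. The higher ones were an S16-like gene, copies of S9 and a copy of S7 that was listed at 0 in all WT libraries. The 3 that passed were sparsely counted, with no level above 4.26 in any library. The S9 copy LOC100364509 missed the threshold (limma adjusted p = 0.0522).

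By RefSeq symbols, 19 of 46 standard large subunit genes and 12 of 30 standard small subunit genes were listed for IMQ against WT. Of the large subunit genes numbered up to 12, 0 of 12 were listed, against 18 of 31 with higher numbers. In the small subunit 0 of 9 numbered up to 9 were listed, against 12 of 21 with higher numbers. These limits were chosen after the values were seen. The counts leave out provisional symbols and the members classed as copies or paralogs. Among the latter, the low-numbered Rpl3l (-1.05, limma adjusted p = 0.12) and Rps4y2 (-1.30, limma adjusted p = 0.0133) were listed as lower. Under provisional symbols, L9-like genes (-1.12, -1.08 and -1.01) and an S8 copy (-1.66) were listed as lower. The copies of S7 and S9 given above were listed as higher. The numbering goes back to migration in gels, in which larger proteins have lower numbers; protein lengths were not used here, and levels of the genes outside the tables were not analysed here.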
